A study of Drosophila melanogaster with 2 samples.

Results

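The genes twi, sna, sim, zen, zen2, tin, pnr, tup, Doc1 and Doc2 encode transcription factors of the mesoderm, the ventral midline and the dorsal side of the Drosophila embryo. Chromatin immunoprecipitation followed by sequencing (ChIP-seq) had been carried out on whole embryos of mixed sex, aged 0 to 24 h, in 2 biological replicates of 1 strain. The flies of that strain, side-MiMIC-GFP, carried an extra eGFP exon in an intron, and chromatin was precipitated with an antibody to GFP. The labels call the fusion protein Side-eGFP and also say that the insertion targets Sidpn, which is a different gene, so the identity of the tagged protein was not settled. All stages and all tissues of the embryo were in the same chromatin, there was no second strain or condition, and both replicates were set against the same control. The 10 genes were listed by name, and peaks were assigned to them by position alone: a summit had to lie inside the annotated gene or within 5 kb of it. All 10 were found among 13945 protein-coding genes on the major chromosome arms.

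The dorsoventral axis of the fly embryo is laid down by a nuclear gradient of Dorsal on the ventral side and by BMP signalling on the dorsal side. Twist and Snail specify the mesoderm at high Dorsal levels, and Tinman then directs dorsal mesoderm and heart. Single-minded is the master regulator of the midline cells that arise at the border of the mesoderm. On the dorsal side Zerknullt, Pannier, Tailup and the Dorsocross T-box proteins act in the amnioserosa, an extraembryonic epithelium needed for germ band retraction and dorsal closure, and in the neighbouring dorsal ectoderm and heart.

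The authors deposited 3 lists of 30000 candidate peaks, 1 from each replicate and 1 from the pool. They also deposited an optimal list of 4097 peaks past the threshold of the irreproducible discovery rate (IDR) procedure, which compares ranks between replicates. The optimal list holds the pooled candidates of highest signal, so a single peak in it need not rank alike in both replicates. Peaks of the optimal list are called thresholded peaks. Signal is column 7 of these lists, a value of the authors' peak caller with no stated scale. Rank 1 is the highest signal of a list. Candidate lists hold peaks and background together, the lowest thresholded signal was 81.5, and the sequencing depth of both replicates is unknown. Intervals cover counting error only. Coordinates are 1-based on dm6.

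Of the 10 genes, 6 had a thresholded peak in or within 5 kb: sim, tin, pnr, tup, Doc1 and Doc2. The genes without any were twi, sna, zen and zen2. Among all protein-coding genes 46.5% had a thresholded summit in the same window, so 6 of 10 was close to the background. Longer genes have longer windows, and the median length was 5114 bp for the 10 genes and 2166 bp for all protein-coding genes. Of the 5 genes of 5 kb or longer, 4 had a thresholded peak, against 60.1% of all genes of that length. Of the 5 shorter genes, 2 had such a peak, against 41.9% of all shorter genes. A thresholded summit within 500 bp of a gene's own start site was found at 3 of the 10 genes, tin, pnr and tup, against 19.6% of all protein-coding genes.

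The windows of the 10 genes covered 237 kb and held 70 pooled candidates, 69 candidates of replicate 1 and 79 of replicate 2. Pooled candidates lay at 29.6 per 100 kb there and at 22.4 per 100 kb over the whole of the arms. Thresholded peaks numbered 8 and lay at 3.38 per 100 kb, against 3.06 per 100 kb over the arms. Of the 70 pooled candidates, 9 (12.9%, 95% Wilson interval 6.91 to 22.7) overlapped a thresholded peak, against 17.1% of all pooled candidates. The order turned when candidates were given only to the gene with the nearest start site, where 6 of 29 (20.7%) did. The interval held 17.1%, but it treats the 70 candidates as independent, while they held 8 overlapping pairs. The 9 included a second candidate at tin that overlapped the thresholded peak there. The 29 are part of the 70, so the interval cannot be used to judge 20.7%. The median signal of those 70 was 32.3, and that of all pooled candidates 32.2. The median of the 8 thresholded peaks was 144 and that of all thresholded peaks 124, with the highest at 212 near the 10 genes and at 2300 in the whole list.

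**Figure D1:**
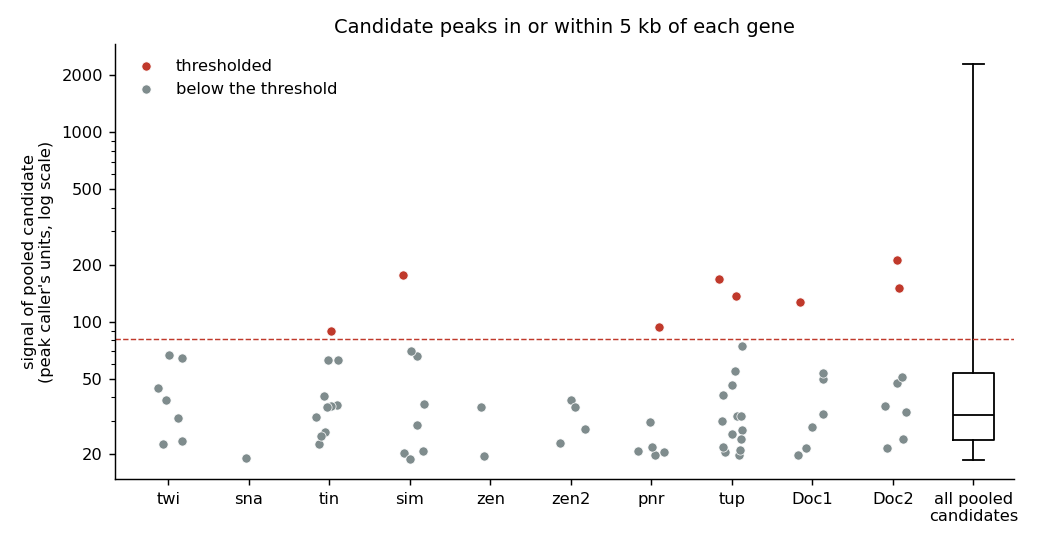
Signal of every pooled candidate in or within 5 kb of each gene, on a log scale in the peak caller's units. Red points are thresholded, grey points are not, the dashed line is the lowest thresholded signal (81.5), and the box shows the quartiles, median and full range of all 30000 pooled candidates. The points of twi, sna, zen and zen2 all lie below the line, and the highest point belongs to Doc2 (212).

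Among the mesoderm genes, twi encodes the basic helix-loop-helix activator that sets up the mesoderm. It is annotated on arm 2R (22985374 to 23048325) because of a long transcript, while its other transcripts start at 23046108 and 23046322. The twi window held 7 pooled candidates and no thresholded peak. The strongest had a signal of 66.9 and rank 5542, ranked 6707 in replicate 1 and 8078 in replicate 2, and lay 9 bp from the start site of CG9896 inside the extent of the long transcript. A second intronic candidate had a signal of 64.2 in the pooled list, 33.7 in replicate 1 and 29.9 in replicate 2. The candidate at the twi promoter itself, 19 bp upstream of a start site, had a signal of 31.0. The strongest peaks that overlapped it had 19.5 in replicate 1 and 19.2 in replicate 2. That replicate 1 peak had its summit outside the candidate, and the replicate 1 peak at the candidate's summit had 15.1 and rank 23007. The promoter candidate ranked 15737 in the pooled list, so the twi promoter was well below the threshold. With the long transcript left out, 2 candidates were left, the stronger of them at the promoter of CG42741 with a signal of 38.7. The nearest thresholded peak lay 16073 bp from the gene, at CG9890.

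The gene sna (2L, 15476593 to 15478260) encodes a zinc finger repressor that keeps neural and midline genes off in the mesoderm. Its window held 1 pooled candidate, 2 candidates of replicate 1 and 2 of replicate 2. The pooled candidate lay in the coding exon, 848 bp from the start site, with a signal of 19.2 and rank 29233 of 30000. It overlapped a replicate 1 peak of signal 15.3 and no peak of replicate 2. The 2 replicate 2 candidates lay elsewhere in the window, with signals of 14.0 and 10.7. The nearest thresholded peak was 20765 bp away at lace, a gene of sphingolipid synthesis. Candidate density at sna was 0.0857 per kb, lower than the median of 0.301 per kb over all protein-coding genes.

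The homeobox gene tin (3R, 21378977 to 21381970), needed for heart and dorsal mesoderm, had the densest window of the 10. It held 11 pooled candidates in 13.0 kb, or 0.847 per kb, a density above that of 97.0% of protein-coding genes. Overlapping candidates were counted apart, and the 11 formed 7 separate regions. Its single thresholded peak lay 164 bp upstream of the start site with a signal of 89.9 and rank 3531. The signal was 30.7 in replicate 1, where it ranked 7574, and 66.0 in replicate 2, where it ranked 1704. The peak was thus high in replicate 2 and below the top 4097 in replicate 1. Most of the remaining candidates lay upstream, inside the neighbouring mod(mdg4), a gene for chromatin proteins with a BTB domain. The strongest of these had signals of 63.2 in an intron and 63.1 at the promoter of mod(mdg4). The sequence around the tin summit, chr3R:21378738-21378888 on the plus strand, is shown because tin was the only one of twi, sna and tin with a thresholded promoter, with capitals for any match to the motifs listed further on.
tin promoter: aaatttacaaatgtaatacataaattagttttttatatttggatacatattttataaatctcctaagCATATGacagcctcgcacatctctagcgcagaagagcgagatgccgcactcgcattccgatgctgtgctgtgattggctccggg
The capitals CATATG, an E-box of the form that Twist is known to bind, start at base 68, next to the summit at base 76. The same motif was found within 100 bp of the summit in 6.88% of all thresholded peaks.

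The midline gene sim (3R, 13057755 to 13078124) encodes a bHLH-PAS factor that works with Tango. Of the 8 pooled candidates in its window, 1 was thresholded. It had a signal of 176 and rank 1108, with 78.8 and rank 1600 in replicate 1 and 105 and rank 737 in replicate 2. This peak was 194 bp wide, where the other 7 candidates of the window were 410 bp wide. The strongest peaks of tup and Doc2 were also narrow, at 183 and 203 bp. Narrow peaks were not particular to these genes, since a thresholded peak at bcd spanned 6759618 to 6759721. Widths over all thresholded peaks were not compared. The sim peak lay in an intron, 4135 bp upstream of the start site of the shortest transcript. The next candidates were 337 bp beyond the 3′ end (signal 70.2, rank 5161) and in an intron 1932 bp downstream of a start site (66.2, rank 5620). Among the candidates of this window with a peak in both replicates, the replicates differed most at the one 1932 bp downstream. It had a signal of 52.0 and rank 3312 in replicate 1, and 15.5 and rank 16350 in replicate 2. The replicate 2 peak nearest its summit had 12.9 and rank 20715. No candidate lay within 500 bp of a start site of sim. The sequence at the thresholded summit, chr3R:13068189-13068339 on the plus strand, is given because it is the strongest site at twi, sna, tin or sim.
sim intron: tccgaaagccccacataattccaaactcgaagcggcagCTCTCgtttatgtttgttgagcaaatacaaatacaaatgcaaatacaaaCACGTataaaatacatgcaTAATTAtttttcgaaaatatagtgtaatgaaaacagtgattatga
Capitals mark GAGAG on the opposite strand from base 39, ACGTG on the opposite strand from base 88 and TAATTA from base 107. ACGTG is the core of the sites known for Single-minded with Tango, and it was present within 100 bp of the summit in 15.8% of all thresholded peaks.

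Of the dorsal genes, zen and zen2 are neighbouring homeobox genes of the Antennapedia complex. The gene zen (3R, 6752864 to 6754194) is required for the amnioserosa, and zen2 (3R, 6743135 to 6744136) is its duplicate. The window of zen held 2 pooled candidates and that of zen2 held 4, none of them thresholded. The strongest at zen lay 968 bp beyond its 3′ end with a signal of 35.6, 18.2 in replicate 1 and 26.8 in replicate 2. The strongest at zen2 had a signal of 38.8 and lay 81 bp from a start site of the neighbouring pb. It overlapped a peak of 16.3 in replicate 1 and of 30.6 in replicate 2. The summit of that replicate 1 peak, at 6742240, was outside this candidate and next to that of a weaker candidate, at 6742238. At both genes the peak overlapping the strongest candidate was higher in replicate 2, and no candidate lay within 500 bp of a start site of zen or zen2. The nearest thresholded peak was just outside the window, 5461 bp from zen, 189 bp upstream of bcd, the anterior morphogen gene. It had a signal of 153 and rank 1407.

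The gene pnr (3R, 16026079 to 16041796) encodes a GATA factor of dorsal ectoderm and heart. Its thresholded peak lay 21 bp downstream of the first start site, with a signal of 93.9 and rank 3285. Replicate 1 gave 52.2 and rank 3282, and replicate 2 gave 36.9 and rank 4698, which is below the top 4097. The other 5 pooled candidates had signals of 19.9 to 29.7, and each of them overlapped a peak of 1 replicate only. The peak at the first start site was thus the single pooled candidate of the pnr window that both replicates held.

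The gene tup (2L, 18859507 to 18881261) encodes a LIM homeodomain protein, also known as Islet. Its window held 16 pooled candidates, the most of the 10 genes, in 14 separate regions. A thresholded peak lay 239 bp upstream of the start site with a signal of 137 and rank 1696. It was stronger in replicate 1 (86.9, rank 1363) than in replicate 2 (43.4, rank 3560). The other thresholded peak lay 1718 bp beyond the 3′ end of tup, inside CG10602 and 110 bp upstream of a start site of that gene. It had a signal of 168 and rank 1204, with 80.4 in replicate 1 and 94.7 in replicate 2. Between these ends, the introns and coding exons of tup held candidates of signal 19.9 to 54.8, all below the threshold. A candidate 118 bp beyond the 3′ end, at the 5′ end that CG10602 shares with the mitochondrial ribosomal protein gene mRpL13, had a signal of 74.8 and rank 4682. It ranked 3443 in replicate 2 and 7676 in replicate 1. The tup promoter site, chr2L:18881425-18881575 on the plus strand, is shown because it was the strongest thresholded peak at a start site of any of the 10 genes.
tup promoter: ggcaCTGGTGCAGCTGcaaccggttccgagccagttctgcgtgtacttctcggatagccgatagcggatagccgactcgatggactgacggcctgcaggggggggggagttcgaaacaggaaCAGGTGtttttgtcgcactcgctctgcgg
Capitals mark CACNAG on the opposite strand from base 5, CAGCTG from base 11 and CAGGTG from base 123. These are the N-box of HES-type repressors and a pair of E-box forms that other bHLH proteins and Snail are known to bind. Within 100 bp of the summit CAGCTG and CAGGTG were each found at 1 of 8 peaks, against 11% and 6% of all thresholded peaks. Within 50 bp of the summit both were found at 0 of 8. The tup promoter was also rich in G and C, at 61.2% within 100 bp of the summit, above the upper quartile of 43.8% over all thresholded peaks.

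The Dorsocross genes encode T-box factors of the amnioserosa and heart and lie in a cluster with Doc3. Doc1 (3L, 9041375 to 9045042) had 7 pooled candidates, and Doc2 (3L, 9012686 to 9019246) had 8. Their windows did not overlap. The thresholded peak of Doc1 lay 514 bp beyond the 3′ end of the gene, with a signal of 127 and rank 1959. It had 78.3 in replicate 1 and 46.6 in replicate 2, with ranks of 1619 and 3149. Doc2 had the strongest peak of the 10 genes, 746 bp beyond its 3′ end, with a signal of 212 and rank 785. Replicate 1 gave 130 and rank 619 there, and replicate 2 gave 83.1 and rank 1098. The second thresholded peak of Doc2 lay 4501 bp upstream of the start site, with a signal of 150 and rank 1448. It was alike in both replicates, with 85.6 and rank 1396 in replicate 1 and 77.4 and rank 1250 in replicate 2. Neither promoter was thresholded: the candidate 261 bp upstream of Doc1 had a signal of 50.1, that within Doc1 496 bp from a start site 54.0, and that 221 bp upstream of Doc2 36.0.

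The strong sites of the Dorsocross cluster all lay outside the genes, downstream of both and far upstream of Doc2. Their sequences are printed together, chr3L:9045481-9045631, chr3L:9011865-9012015 and chr3L:9023672-9023822, all on the plus strand, since they show what the intergenic peaks look like.
Doc1 downstream: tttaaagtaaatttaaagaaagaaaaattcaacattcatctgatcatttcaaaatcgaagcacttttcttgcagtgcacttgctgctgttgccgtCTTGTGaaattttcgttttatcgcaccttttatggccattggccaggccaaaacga
Doc2 downstream: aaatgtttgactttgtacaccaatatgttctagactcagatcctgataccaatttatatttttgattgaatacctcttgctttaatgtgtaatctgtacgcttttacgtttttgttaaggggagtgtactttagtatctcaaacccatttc
Doc2 upstream: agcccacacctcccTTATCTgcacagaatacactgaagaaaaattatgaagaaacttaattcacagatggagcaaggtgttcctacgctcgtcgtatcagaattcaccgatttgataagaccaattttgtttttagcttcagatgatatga
In these stretches capitals mark CACNAG on the opposite strand from base 96 of the first and AGATAA, the letters of a GATA site, on the opposite strand from base 15 of the last. AGATAA was present within 100 bp of the summit in 12.6% of all thresholded peaks. The stretch at the strongest of these peaks, downstream of Doc2, held none of the letters searched. It had the lowest share of G and C of the 8 peaks, at 34.3% within 100 bp of the summit.

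**Figure D2:**
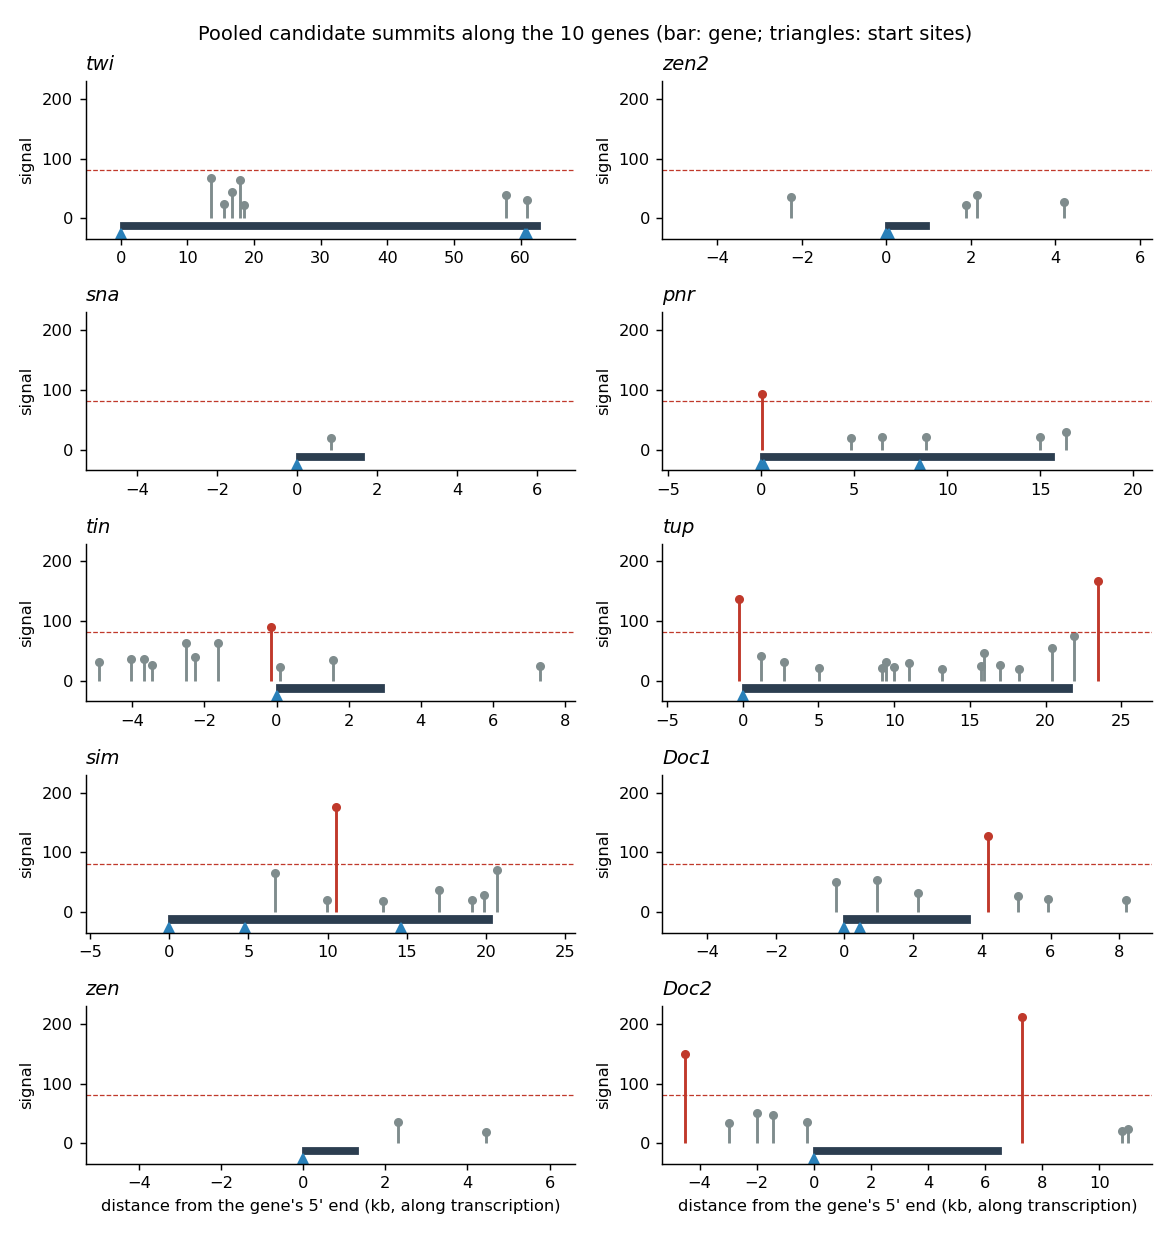
Summits of pooled candidates along each gene, with distance in kb from the 5′ end of the annotated gene in the direction of transcription on the x axis and signal in the peak caller's units on the y axis. Red stems are thresholded peaks, dark bars the gene, triangles its start sites, and the dashed line the lowest thresholded signal (81.5). Red stems stand at the start of tin, pnr and tup, and outside the gene body at both ends of Doc2 and downstream of Doc1 and tup.

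By position, summits within 500 bp of an annotated start site of any gene numbered 4 of the 8 thresholded peaks (50%), against 56.4% of all thresholded peaks, and 3 of the 4 were at the gene's own start. Intergenic summits numbered 3 of 8 (37.5%), all at Doc1 and Doc2, against 10.7% of all thresholded peaks. The intronic summit of sim was 1 of 8 (12.5%), against 30.4%. None lay in a coding exon, where 0.317% of all thresholded peaks lay. Of the 62 candidates below the threshold, 11 (17.7%) lay in one. The share over all candidates below the threshold was not counted, so this value has no background beside it. With 8 peaks, of which 3 came from the Dorsocross cluster, these shares are a description.

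All 8 thresholded peaks overlapped a candidate in both replicates, and 6 of them (75%) ranked among the top 4097 of both, against 72.4% of all thresholded peaks. The exceptions were the promoters of tin, low in replicate 1, and of pnr, low in replicate 2. Of the 70 pooled candidates, 62.9% overlapped a peak in both replicates, against 64.0% of all pooled candidates. The log2 ratio of replicate 1 over replicate 2 lay between -1.10 at tin and 1.00 at the tup promoter. Over all 4078 thresholded peaks with a peak in both replicates, its median was 0.24 and its SD 0.58. The value of tin was over 2 SD below that median. Ranked by each replicate alone, 4 of the 10 genes, sim, tup, Doc1 and Doc2, had a top 4097 peak of both in or within 5 kb, against 39.4% of all protein-coding genes, so this count was also at the background.

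**Figure D3:**
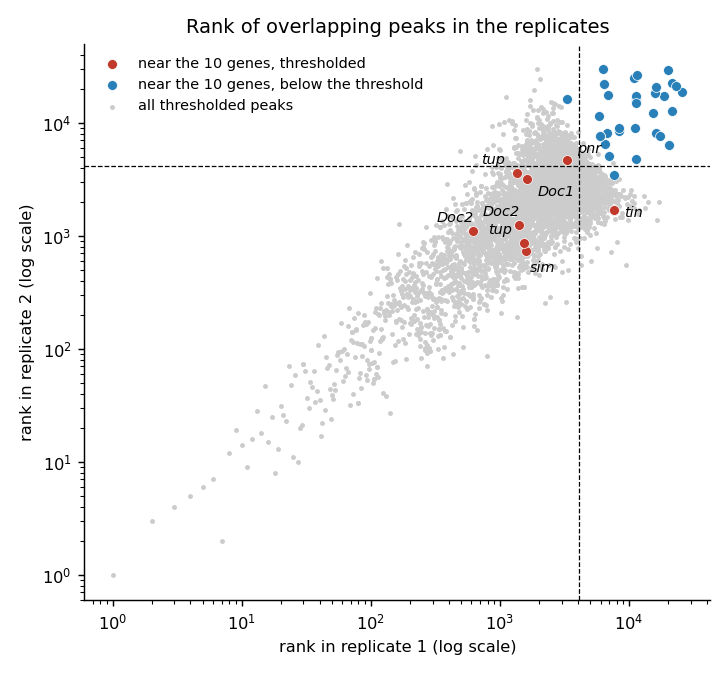
Rank in replicate 1 (x axis) and replicate 2 (y axis), both on log scales, of the strongest peak overlapping each thresholded peak near the 10 genes (red, with the gene's name), each other pooled candidate there (blue) and each thresholded peak of the series (grey). Dashed lines mark rank 4097, and candidates with no peak in a replicate are not drawn. The red points of sim, tup, Doc1 and Doc2 fall inside both lines, with tin outside the first (rank 7574) and pnr outside the second (rank 4698).

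Motifs were searched as letters on both strands within 100 bp of each summit. Neither the canonical E-box CACGTG nor the Zelda site CAGGTAG was found at any of the 8 thresholded peaks, and these were also rare in all thresholded peaks, at 2.71% and 1.03%. The class C site CACGCG, known for HES-type repressors, was found at 1 of 8, the pnr promoter, against 4.81% of all thresholded peaks. The N-box CACNAG was found at 2 of 8, the tup promoter and the site downstream of Doc1, against 22.9%. ACGTG, which overlaps CACGTG where both occur, was found at 2 of 8, sim and pnr, against 15.8%.

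Homeobox letters TAATTA were found at 3 of 8 peaks, sim, the site downstream of tup and the site upstream of Doc2, against 12.2% of all thresholded peaks. GAGAG was found at 3 of 8, sim, pnr and the tup promoter, against 27.3%, and at 23 of the 62 candidates below the threshold (37.1%), against 26.1% of all pooled candidates. The Dorsal-type letters GGGAAAA were found at 2 of 8, sim and the site downstream of Doc2, against 5.42%. Within 50 bp of the summit TAATTA was found at 1 of 8 peaks, against 5.93% of all thresholded peaks, and GGGAAAA at 0 of 8, against 2.54%. TNAAGTG of Tinman was found at 1 of 8, sim, against 14.3%. The pnr promoter was the 1 peak with the insulator and core promoter letters TATCGATA and GGTCACAC, against 4.61% and 3.27%. The T-box letters AGGTGTGA, the Twist-type letters CACATG and the Mad-type letters GGCGCC were found at none, against 0.439%, 8.49% and 3.71%. With 8 peaks, 1 peak is 12.5%, so these counts are a description.

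Related genes were grouped in 5 lists by tissue, pathway or family. Of the 9 midline genes, 8 (88.9%) had a thresholded peak in or within 5 kb, and of the 9 amnioserosa genes 7 (77.8%) did, against 46.5% of all protein-coding genes. Dorsoventral inputs had 9 of 12 (75%), further mesoderm genes 7 of 14 (50%) and relatives from the same gene families or clusters 6 of 15 (40.0%). Median gene length ran from 5134 bp in the midline list to 13560 bp in the dorsoventral inputs, all above the 2166 bp of all protein-coding genes. Of all protein-coding genes of 5 kb or longer, 60.1% had a thresholded summit in the window, a closer background for these lists than 46.5%. The median of each gene's strongest candidate was 91.9 for the 10 genes and 92.1 for all genes with a candidate.

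In the mesoderm list the strongest peaks were near Mef2 (939), slp2 (406), how (174) and bin (173), and that near Mef2, the muscle differentiation factor, lay at the promoter of Pal1. At the other end, eve, a marker of heart and muscle founders, had nothing stronger than 34.2, and bap, the neighbour of tin, nothing stronger than 25.05. Both were named after their values were seen. The midline list was led by S (413), spi (382), oc (208) and sli (150), of which S and spi encode parts of the EGF receptor signal sent by midline cells and sli the axon repellent Slit. The amnioserosa list was led by ush (2300), Ance (303), Doc3 (212) and puc (189). The peak near ush, a partner of Pannier, lay closest to the start of cbt, that near Ance at the promoter of Smg5, and that of Doc3 was the same peak as that downstream of Doc2.

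Among the dorsoventral inputs Med (488), cact (404), Mad (383) and shn (285) held the strongest peaks, while tld and scw, genes of BMP processing and of a BMP ligand, had no candidate at all. They were named after their values were seen, and 16.7% of all protein-coding genes had none either, the same share as 2 of 12. The Med peak lay at the promoter of Mnat9. Among the relatives the strongest were GATAd (159), org-1 (157), bcd (153) and C15 (136). The strongest candidate at sna had 19.2, against 40.7 at esg and 39.9 at wor, its paralogs on the same arm, which also had no thresholded peak. A further Snail-family relative, scrt on 3L, did have one at its promoter, with a signal of 95.2. Among the T-box relatives org-1 held a thresholded promoter peak, and byn and bi had none, with 44.0 and 73.8. Of the T-box genes in the other lists, Doc3 had the thresholded peak it shares with Doc2, and mid (67.6) and H15 (60.2) had none. The genes esg, wor, scrt, byn, bi, mid and H15 were also named after their values were seen.

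**Figure D4:**
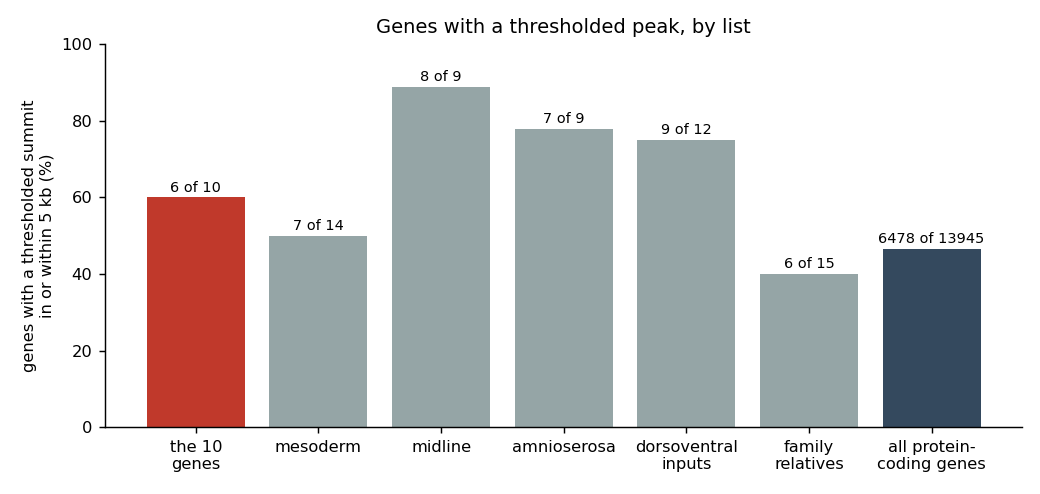
Share of genes in each list (y axis, percent) with a thresholded summit in or within 5 kb, with counts above the bars. The 10 genes (red) stand at 60.0%, the midline list at 88.9%, and all protein-coding genes (dark) at 46.5%, and the lists differ in gene length.

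The limit of 5 kb decided some of these counts. Just inside it lay the upstream peak of Doc2, 4501 bp from the gene. Just outside lay the bcd peak 5461 bp from zen, a peak at the promoter of pic 5580 bp from sim (signal 93.0), and a peak of signal 197 and rank 900 at 6632 bp upstream of Doc2. Further out, within 10 kb, were peaks at 8967 bp from Doc2 (84.4), at 7819 bp from pnr at the promoter of CG5013 (124), at 8996 bp from tup (204) and at 8709 bp from zen (92.2). The intergenic side of Doc2 towards Doc1 thus held 3 thresholded peaks in a row, at 4501, 6632 and 8967 bp from the gene, with only the first inside the limit.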

How the data were processed

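ChIP-seq peaks were measured in 2 biological replicates, which were assigned from the numbers in the labels. Per the deposited file records, candidate lists were made for each replicate and for the pool against the same control, and the optimal list holds the pooled candidates of highest signal. The signal in column 7 of these lists is the authors' value. For the peak caller, aligner and IDR threshold, the sources used here give no name or value. Lists on dm3 were not used. Genes came from Ensembl release 115 (version 6.54), without transposable elements and pseudogenes, and sequence came from the RefSeq copy of Release 6, which is dm6.

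A summit was given to every gene whose annotated extent, widened by 5 kb, held it. Replicate values are those of the strongest peak overlapping by at least 1 bp. A pooled candidate can share its replicate peak with a neighbouring candidate, thresholded or not, and the summit of that peak can lie outside the candidate. Printed sequences run 75 bp each side of a summit and avoid annotated UTRs. The members, the 18 motifs and the 5 lists of related genes were chosen with earlier results of these data known. No test was made, since there is 1 group. Named were all members, the genes nearest their peaks, and up to 4 genes per list with the strongest thresholded peak. Related genes outside this rule were named after their values were seen. Python 3.11.15 and pandas 2.3.3 were used, and overlap, distance and motif functions were checked on made-up data.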

Additional observations from a re-analysis of the deposited data

How the results depend on the processing

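The number of the 10 genes with a thresholded peak was between 5 and 7 under windows of 2 and 10 kb, assignment to the nearest start site only, and either replicate alone, and was 1 among the 1000 strongest peaks, where only the peak downstream of Doc2 was left. With a window of 10 kb, 15 thresholded peaks were counted in place of 8 and 12 of them were in the top of both replicates. Assigned by nearest start site, 5 peaks were counted, 3 of them in the top of both replicates. The median signal of candidates was then 35.5, and 6 of 29 candidates (20.7%) were past the threshold, against 17.1% of all candidates. Among the 1000 strongest peaks the count of peaks was 1, in the top of both replicates, the share of candidates past the threshold 1.43%, and the count of thresholded promoters 0. From single replicates the median candidate signal was 14.97 to 19.52, on those lists' own scales, and the count of thresholded promoters was 2 without replicate 1 and 2 without replicate 2. Leaving out the long transcript of twi, a setting added after the data were seen, gave 6 genes and 8 peaks. Promoter windows of 200 and 1000 bp gave 2 and 3 genes, and stricter overlap with the replicates, reciprocal by 50% or summits within 100 bp, gave 4 and 5 peaks in the top of both. The narrow peaks downstream of tup (183 bp) and Doc2 (203 bp) each covered under 50% of a wider replicate peak. Their width thus kept them from passing the reciprocal rule. Under these stricter rules the share over all thresholded peaks was not counted. Of the 18 motif counts, 9 moved by over 1.5 times within 50 bp of the summit and 2 within 200 bp. Depth is unknown, so no limit of detection can be given for sna, zen, zen2 or twi. No paired analysis was possible because there is 1 group of samples.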
